A study of Mus musculus with 3 samples.

Results

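The regions described here are distal stretches of the mouse genome that were open in every cell class of the developing embryo. The genome was cut into bins of 1 kb (mm10 build), and a bin was distal when it lay more than 2 kb from every GENCODE transcription start site (TSS). Fragment midpoints were summed over all libraries for each of 8 clusters of nuclei, here called classes. A bin was called open in a class when its count reached at least 3 times the mean count per autosomal bin of that class. Of 2065663 distal autosomal bins that were not wholly N, out of 2462755 autosomal bins in all, 4973 were open in all 8 classes. Of these, 132 exceeded 50 times the mean of a class and were set aside, as the rule treats them as mapping artefacts, which left 4841 members, or 2834 when the deepest library, E13.5, was left out. Because the counts chose the members, their height over the mean is a description and was not tested.

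The nuclei came from frozen sections of whole wild-type C57BL/6JRj embryos, littermates of those used for spatial maps, at 3 stages (E12.5, then E13.5, then E15.5). They were stained with 7-AAD, sorted and profiled by droplet snATAC-seq, with 1 library per stage. The deposited cell table held 1879 nuclei, of which 153 were from the E12.5 embryo tissue, 970 from that of E13.5 and 756 from that of E15.5. The libraries held 9402554, 87687839 and 53120243 unique fragments in that order. The classes were the authors' clusters 0, 1, 5, 6, 7, 8, 9 and 10, which held 1199 nuclei. There was no replicate library at any stage, so every interval below is a 95% interval for counting error only, and stage cannot be told apart from library. Only 1 barcode was present in more than 1 library. In the 3 libraries 5, 34 and 138 nuclei were linked to another barcode, 3, 15 and 14 of them in the 8 classes. A pair was linked when identical fragments made up at least 10% of those of the barcode with fewer fragments. With 1 barcode kept per linked group 4860 bins were members.

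In ATAC-seq, the Tn5 transposase inserts adapters into DNA that is not wrapped on nucleosomes, so short fragments mark open, nucleosome-free stretches and longer ones span nucleosomes. Many distal open regions are enhancers that differ between cell types. Some distal sites are open in nearly every cell: sites bound by CTCF, a zinc-finger protein that works with cohesin at insulators and chromatin loop anchors, CpG-rich promoters of transcripts missing from an annotation, and tRNA genes, which RNA polymerase III reads from promoter elements inside the gene.

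The labels of the classes were checked against marker genes, counting fragments over each gene and the 2 kb upstream, and a marker was raised at 1.5-fold or more over the other nuclei. Cluster 0 (10 of 13 neuron markers raised) and cluster 6 (9 of 13) were neuron-like, and cluster 9 was neural progenitor-like (8 of 8). Cluster 1 was mesenchyme-like (8 of 8), cluster 5 erythroid-like (10 of 10) and cluster 10 muscle-like (8 of 8), with 3 of 4 heart markers also raised. Cluster 7 raised markers of epithelium (6 of 7), cartilage (4 of 5) and Schwann cells (3 of 4), and cluster 8 those of liver (5 of 6), endothelium (4 of 5) and white blood cells (4 of 5), so neither was given a name. A class may thus hold more than 1 cell type.

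The members with the highest level in their lowest class, where level is the count over the class mean, show the range of sequences found. Each sequence is the 150 bp of the bin with the most Tn5 insertions, read from the reference plus strand of the GRCm38 assembly (mm10), and capitals mark matches to the motifs searched. The regions lie near Sema3b, Cirbp, Gm6444 and Zfp869, and near Stard10, whose window holds a match to the CTCF motif and 2 to the NRF1 motif.
Sema3b region, chr9:107612786-107612935: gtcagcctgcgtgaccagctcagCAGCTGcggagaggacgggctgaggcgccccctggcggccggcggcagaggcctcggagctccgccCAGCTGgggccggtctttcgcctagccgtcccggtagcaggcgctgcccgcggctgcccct
Cirbp region, chr10:80160002-80160151: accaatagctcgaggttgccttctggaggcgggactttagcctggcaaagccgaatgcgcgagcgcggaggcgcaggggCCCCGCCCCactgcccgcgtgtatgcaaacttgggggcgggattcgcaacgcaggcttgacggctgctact
Gm6444 region, chr5:123058001-123058150: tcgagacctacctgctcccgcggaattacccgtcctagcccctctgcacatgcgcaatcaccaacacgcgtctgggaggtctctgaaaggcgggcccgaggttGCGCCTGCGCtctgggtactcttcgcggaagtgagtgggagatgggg
Zfp869 region, chr8:69717005-69717154: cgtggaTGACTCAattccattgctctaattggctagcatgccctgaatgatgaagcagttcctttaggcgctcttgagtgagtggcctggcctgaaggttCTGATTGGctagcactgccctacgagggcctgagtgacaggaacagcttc
Stard10 region, chr7:101310759-101310908: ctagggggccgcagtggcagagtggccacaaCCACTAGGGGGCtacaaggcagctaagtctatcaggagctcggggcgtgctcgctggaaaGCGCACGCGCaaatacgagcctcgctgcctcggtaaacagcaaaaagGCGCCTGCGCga
The Sema3b window was 76% G and C and held 16 CpG dinucleotides, with matches only to the E-box letters. The Cirbp window held an SP/KLF match, the Gm6444 window an NRF1 match, and the Zfp869 window matches to AP-1 and NFY with only 3 CpG.

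The next windows carry matches to the CTCF motif. The Ern1 region sat at the median of the members by level, and the Gm24484 and Gm6970 regions sat just inside the threshold. The last lies within 50 kb of the imprinted gene Igf2r. Its nearest annotated transcript start is one of those of Airn, the antisense transcript of Igf2r, and need not be the main Airn promoter.
Ern1 region, chr11:106491506-106491655: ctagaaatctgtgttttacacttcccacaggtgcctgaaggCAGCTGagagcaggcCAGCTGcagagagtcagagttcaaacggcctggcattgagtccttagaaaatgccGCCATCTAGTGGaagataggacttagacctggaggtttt
Gm24484 region, chr19:9911569-9911718: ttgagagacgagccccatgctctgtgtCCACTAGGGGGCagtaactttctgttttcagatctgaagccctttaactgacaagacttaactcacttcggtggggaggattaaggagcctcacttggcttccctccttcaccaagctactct
Gm6970 region, chr19:47168338-47168487: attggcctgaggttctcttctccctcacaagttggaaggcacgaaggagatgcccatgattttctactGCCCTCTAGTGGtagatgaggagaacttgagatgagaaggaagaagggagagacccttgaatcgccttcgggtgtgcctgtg
Airn region, chr17:12810543-12810692: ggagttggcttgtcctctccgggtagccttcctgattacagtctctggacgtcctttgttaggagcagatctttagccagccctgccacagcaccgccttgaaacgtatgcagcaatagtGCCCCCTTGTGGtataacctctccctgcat
In all 4 windows the capitals of the CTCF match read CCANNAGNNGGC on 1 of the strands. The Ern1 window also held 2 E-box matches.

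The last group shows tRNA genes inside members, in the direction of transcription, with the gene in capitals and 30 bp of flank on each side. The Wnt11 region held 2 proline tRNA genes on opposite strands, and the Aurkb region held 3 tRNA genes, of which the one for tryptophan is shown.
n-TPtgg8, chr7:98815385-98815516, plus strand: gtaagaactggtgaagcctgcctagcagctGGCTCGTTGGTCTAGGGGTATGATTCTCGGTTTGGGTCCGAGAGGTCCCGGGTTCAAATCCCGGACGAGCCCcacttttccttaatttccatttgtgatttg
n-TPagg7, chr7:98815646-98815777, minus strand: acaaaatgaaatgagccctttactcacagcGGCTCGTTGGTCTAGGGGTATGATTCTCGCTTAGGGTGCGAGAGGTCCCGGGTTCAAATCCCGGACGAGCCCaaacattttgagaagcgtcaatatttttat
n-TWcca7, chr11:69041796-69041927, plus strand: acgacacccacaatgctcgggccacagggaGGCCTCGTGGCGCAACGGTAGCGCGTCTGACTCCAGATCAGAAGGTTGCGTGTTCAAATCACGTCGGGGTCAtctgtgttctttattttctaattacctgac
After each of the 3 genes the printed flank holds a run of at least 4 T, the termination signal of RNA polymerase III.

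Being open in every class was rare among distal bins. Of the 2065663 bins, 86.3% were open in 0 classes and 7.85% in exactly 1 (162056 bins), and 0.231% were open in 7 (4773 bins) and 0.241% in all 8, members and set-aside bins together. By the same threshold, 18714 bins near a TSS were open in all 8 classes. The share of distal bins open in all 8 was thus slightly above that in 7.

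Members did not have the same level in every class. The median member level ranged from 5.48 in the erythroid-like cluster 5 to 8.44 in cluster 7, with 6.66 in cluster 0, 7.97 in cluster 1, 7.65 in clusters 6 and 8, 7.90 in cluster 9 and 6.95 in cluster 10. Cluster 5 was the lowest class for 1644 of the 4841 members and cluster 7 the highest for 824. Within a member, the highest class level was a median of 2.84 times the lowest, with the middle 80% of members between 1.89 and 5.58. In 681 members all classes lay within a factor of 2, and in 645 members they differed by more than a factor of 5. These ratios take the extremes of 8 counts, and the threshold was only 8 fragments in cluster 9. Counting error alone spreads such counts, and its part in these ratios was not tested. The lowest-class level had a median of 3.96 and reached 33.05, and 1324 members were above 5 in every class. Members took between 1.59% (cluster 5) and 2.04% (cluster 7) of the autosomal fragments of a class.

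The region with the highest lowest-class level lay 3272 bp from the TSS of Sema3b, which encodes a secreted semaphorin, at chr9:107612001-107613000, outside any gene. Its levels in clusters 0, 1, 5, 6, 7, 8, 9 and 10 were 36.17, 33.05, 40.47, 36.14, 48.12, 41.14, 47.04 and 36.49. From the earliest library to the latest it held 67, 774 and 514 fragments, levels of 34.93, 38.81 and 39.12. Of the 1199 nuclei, 656 (54.7%) had at least 1 fragment there.

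The Gm6444 region (chr5:123058001-123059000), in an intron, had class levels from 30.11 in cluster 9 to 45.17 in cluster 1. The Zfp869 region (chr8:69717001-69718000), with a RefSeq transcript start within 2 kb, ran from 29.54 in cluster 10 to 45.42 in cluster 5. The Stard10 region (chr7:101310001-101311000) ran from 27.16 in cluster 0 to 37.95 in cluster 8. Since these members were picked for a high lowest class and the rule sets aside bins over 50 times a class mean, the choice itself keeps their class levels close together. Among the 12 members with the highest lowest-class level, between 46.3% and 59.0% of nuclei carried a fragment. The Zfp869 region had the most (708 of 1199 nuclei, 56.2% to 61.8%), and at this depth a nucleus without a fragment is not shown to be closed.

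The Mrps27 region (chr13:99353001-99354000), in an intron near a mitochondrial ribosomal protein gene, had a level of 18.77 in the E12.5 library, 29.08 in the E13.5 library and 42.62 in the E15.5 library. Among the 12 members with the highest lowest-class level it had the largest E15.5 over E13.5 ratio, at 1.466 (1.303 to 1.649), while the Akna region had 1.003. Insertions were concentrated within the bins of the 12: the 150 bp with the most insertions held 27.5% to 64.2% of them. The share was 64.2% in the Gm6444 bin, 61.8% in the Zfp869 bin and 38.7% in the Sema3b bin. The window was picked as the highest and kept inside the bin. In the Gm6444, Cirbp and Zfp869 bins it lay at the bin's edge, and insertions past the edge were not counted. In bins just outside the threshold the highest window held 21.3% (Tex44), 24.4% (Rpl30-ps6) and 23.7% (Btg2).

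Members at the median were much lower. The Ern1 region (chr11:106491001-106492000) had levels from 3.957 in cluster 6 to 11.25 in cluster 7, with 5, 137 and 103 fragments in the 3 libraries. The Pecam1 region (chr11:106675001-106676000), in an intron and near a gene of endothelial cells, had its highest level, 11.48, in cluster 8, the class with endothelial markers. The Gm11292 region (chr13:22022001-22023000), with the serine tRNA gene n-TScga1, had its highest level, 16.97, in cluster 5. So a median member could differ several-fold between classes and still pass the rule. Nuclei with a fragment there were 11.6% to 17.7%.

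The threshold cut through a continuous range. The 3 members just inside it, near Gm24484, Trim8 and Gm6970, each had 23 fragments in cluster 0, a level of 3.003. The 3 bins just outside, near Tex44, Rpl30-ps6 and Btg2, each had 18 fragments in cluster 1, a level of 2.989. Their other class levels overlapped: for example 3.711 in cluster 5 at Trim8 and 3.888 at Btg2.

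Nuclei that the rule did not use showed the same regions open. Cluster 3 had 208 nuclei with no marker list raised clearly enough for a name, and it took no part in the choice. There, 4588 members (94.8%, 94.1% to 95.4%) reached 3 times the cluster mean, compared with 1.98% of all distal bins and 2.96% of bins open in exactly 1 class. The mean level of members in cluster 3 was 6.37. The nuclei of cluster 3 were the deepest, with a median of 102990 autosomal fragments against 55700 to 84592 in the 8 classes, and whether some were multiplets of those classes was not tested.

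The share rose with the level in the 8 classes. It was 91.1% for the 2470 members with a lowest-class level between 3 and 4, 97.9% for the 1535 between 4 and 6, 99.8% for the 577 between 6 and 10, and 100% for the 259 above. Bins near a TSS and open in all 8 classes reached 97.9%. The members just over the threshold were thus the ones most often below it in cluster 3.

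The other clusters left out of the rule were shallow, so their thresholds were a few fragments. In cluster 2, where the threshold was 4 fragments, 3519 members (72.7%) passed against 4.87% of distal bins. In cluster 11, erythroid-like by 10 of 10 markers, where a single fragment reached the threshold, 2883 (59.6%, 58.2% to 60.9%) passed against 6.36%. In cluster 4, also with a threshold of 1 fragment and a median of 690 autosomal fragments per nucleus, 1486 (30.7%) passed against 5.39%. The shares fell in the order of the summed autosomal fragments: 2542734 in cluster 2, 612665 in cluster 11 and 195854 in cluster 4. Whether depth accounts for them was not tested, and a member without a fragment in these clusters is not shown to be closed. In cluster 11 the share was 29.7% when the E13.5 library was left out of both the choice of members and the cluster. That library holds 35 of the 43 nuclei of cluster 11.

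Each library also held openness that the other libraries had picked, an analysis added after the data were seen. Here a bin was open in a library when its count, summed over the 8 classes, reached 3 times the library mean. Openness in each class apart was not checked in the library left out. Choosing bins without E12.5 gave 4445, of which 4127 (92.8%, 92% to 93.6%) reached 3 times the mean in E12.5, against 4.67% of all distal bins. Choosing without E13.5 gave 2834, of which 2819 (99.5%) were open in E13.5 against 2.21%. Choosing without E15.5 gave 3453, of which 3429 (99.3%) were open in E15.5 against 2.29%. The E12.5 library was the shallowest, and its threshold was 6 fragments. The number of bins chosen depended on E13.5: the 2834 chosen without it included 45.4% of the members, and 77.5% of the 2834 were members.

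**Figure D1:**
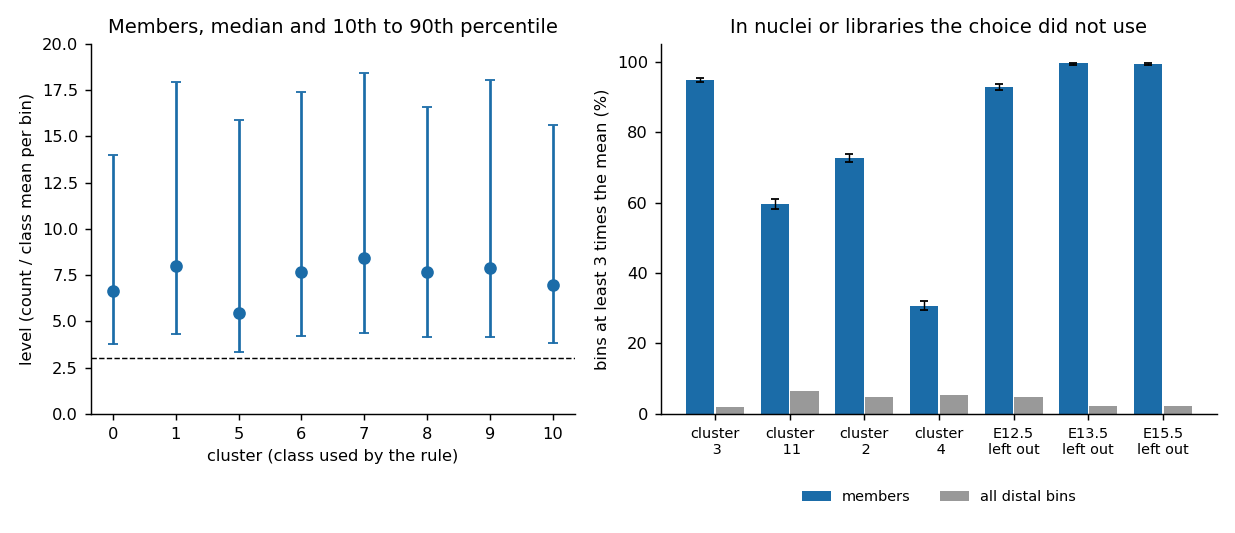
Left, level of the 4841 members in each of the 8 classes that chose them (count over the class mean per bin; points are medians and lines the 10th to 90th percentile; the dashed line is the threshold of 3). Right, percent of bins at least 3 times the mean in clusters and libraries the choice did not use. Blue shows the members, or for a library left out the bins chosen without it, with 95% counting intervals. Grey shows all distal bins. For a library left out the 8 classes were summed, not taken apart. Cluster 3 stood at 94.8% against 1.98%, and cluster 4, the shallowest, at 30.7% against 5.39%.

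Per nucleus, members were sampled thinly and broadly. The median nucleus had a fragment in 648 distinct members in cluster 5, in 749 in cluster 0 and in 1034 in cluster 10, and cluster 3 had 897.5. The order followed depth in part: cluster 10 had the most fragments per nucleus of the 8 classes (84592), but cluster 1, the shallowest (55700), had 800 members and so more than cluster 5 (58185).

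The letters of the CTCF motif, CCANNAGNNGGC, were searched on both strands of each bin. Only exact matches counted, so a bin without a match is not shown to lack a CTCF site. The letters occurred in 1538 members (31.8%, 30.5% to 33.1%), in 7.53% of bins open in exactly 1 class and in 4.998% of all distal bins. Of these members 1383 held 1 match, 669 of them on the plus strand, and 155 held more. The 4 orders of strand in neighbouring matches were about equally frequent, with 308 pairs both on the plus strand, 357 both on the minus strand, 349 plus then minus and 350 minus then plus. CTCF members had a median highest over lowest level of 2.64, compared with 2.97 in members with neither a CTCF match nor CpG-rich sequence. The rule chose on these same class counts and limits their spread, so this is a description only. A like share of both was open in cluster 3 (94.1% and 94.8%).

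Around 1640 matches in members with no other match within 100 bp, insertions were high on both sides of the match and low over it. They were 5.35 times as dense at 20 to 60 bp from the match as at 400 to 500 bp, and the core, within 8 bp of the centre, had 0.344 of the density of that flank. Fragments of the length of 1 nucleosome (at least the DNA of a nucleosome core and less than that of a pair) had midpoints that peaked at -137 and +142 bp and were 0.505 times as dense at the centre as to the sides. The match was thus low in insertions between 2 high flanks, with nucleosome-length fragments denser to both sides than at the centre. Each peak was sought at least 60 bp from the match on its own side, so the search gave 1 per side. Centre over sides was 0.78 at matches in bins open in exactly 1 class and 0.776 in distal bins open in none. In cluster 3 alone it was 0.625 in members, 0.817 in bins open in exactly 1 class and 0.804 in bins open in none.

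In cluster 3 alone, which did not choose the regions, the flank was 3.67 times the far level and the core 0.415 of the flank. In the same cluster, at matches in bins open in exactly 1 class, the flank was 1.22 times the far level and the core 0.971 of the flank, and in distal bins open in none of the 8 classes 1.14 times and 1.06. Over the 8 classes, whose counts sorted the bins, these sets had flanks of 1.39 and 1.22 times. The preference of Tn5 for certain sequences acts at all these matches, and its part in the shape was not tested beyond the values in the other bins.

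**Figure D2:**
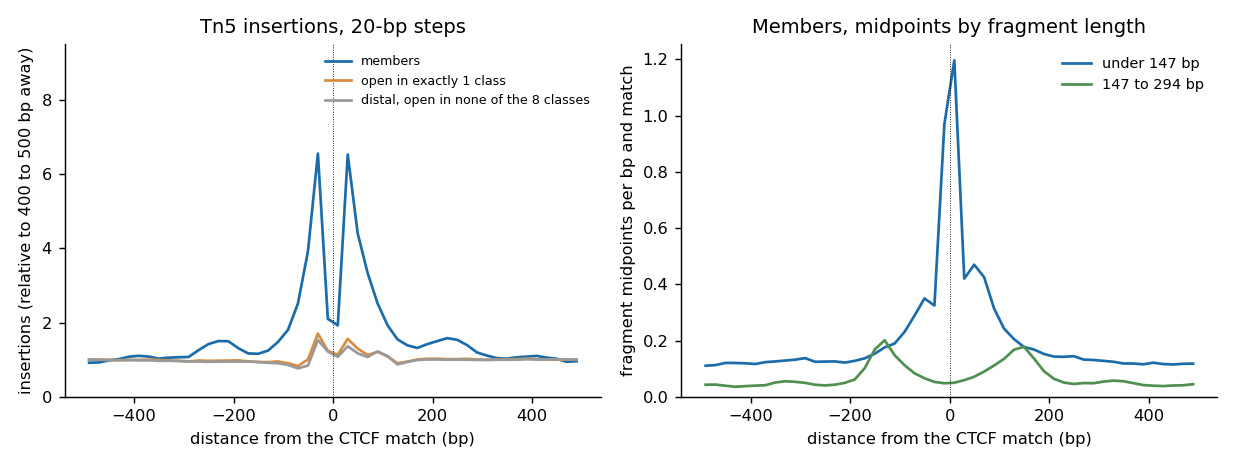
Left, Tn5 insertions in steps of 20 bp around matches to the CTCF motif, relative to the density 400 to 500 bp away, for members (blue), bins open in exactly 1 class (orange) and distal bins open in none of the 8 classes (grey). Right, midpoints per bp and match in members for fragments shorter than the DNA of a nucleosome core (blue) and fragments of the length of 1 nucleosome (green): the insertions of members peaked at 6.55 and 6.52 on the 2 sides of the match, and the longer fragments peaked at -137 and +142 bp.

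Members were richer in G and C than other distal bins, with a median of 51.7% against 45.9% in bins open in exactly 1 class and 41.4% in all distal bins. Their ratio of observed to expected CpG was 0.282 against 0.157 in all distal bins, and a median of 13.1% of their bases were soft-masked repeats against 25.8%. By a rule of over 50% G and C with a CpG ratio over 0.6, 284 members (5.87%) were CpG-rich, compared with 0.105% of distal bins. CpG-rich members made up 3.93% of those with a lowest-class level between 3 and 4 and 24.7% of those above 10. Members with a CTCF match made up 31.0% between 3 and 4, 34.2% between 4 and 6, 32.8% between 6 and 10 and 22.8% above 10. Only above 10 was a match to the CTCF letters thus less frequent than near the threshold, and this difference was not tested.

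Other motifs were searched by plain letters on both strands. The SP/KLF letters GGGGCGGGG, bound by factors of GC-rich promoters, were in 10.7% of members and 1.37% of distal bins. The letters GCGCNTGCGC of NRF1, a factor of promoters of mitochondrial genes, were in 1.94% and 0.194%, and the ETS letters CCGGAAGT in 2.02% and 0.536%. The E-box CAGCTG, bound by lineage factors among others, was in 52.6% and 30.2%. Members are richer in G and C, which alone makes GC-rich letters more frequent and AT-rich letters rarer, and no motif was compared at matched base composition.

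Some other letters were no more frequent in members than in all distal bins. The GATA letters AGATAAG, bound by blood factors among others, were in 10.2% of members against 14.3% of distal bins, the AP-1 letters TGANTCA in 23.4% against 26.9%, the TEAD letters ACATTCC in 12.8% against 13.03%, and the homeobox letters TAATTA in 14.9% against 31.1%. Bins open in exactly 1 class held them in 13.05% (GATA), 28.15% (AP-1), 14.15% (TEAD) and 23.8% (homeobox). The remaining motifs were rarer, and most were somewhat more frequent in members: NFY CCAATCAG in 3.74% against 3.53%, CRE TGACGTCA in 1.47% against 0.529%, YY1 AAGATGGCG in 0.785% against 0.893%, RFX in 0.475% against 0.169%, and NFI and REST in 5 members each (0.103%) against 0.06% and 0.0212%. Partial overlap between motifs (NRF1 with SP/KLF, for example) was not removed.

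**Figure D3:**
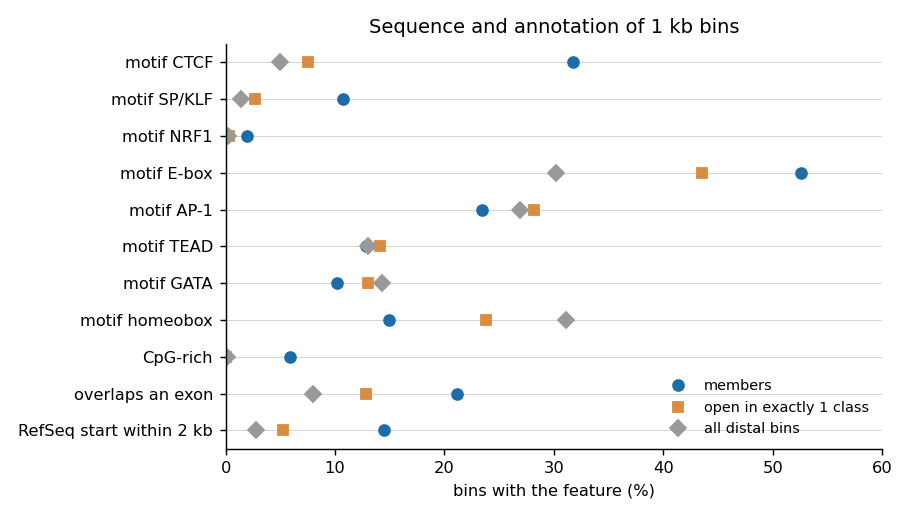
Percent of 1 kb bins with each sequence motif or annotation among the 4841 members (blue circles), the 162056 distal bins open in exactly 1 class (orange squares) and all distal bins (grey diamonds). The CTCF motif was in 31.8% of members and 4.998% of distal bins, while homeobox letters were in 14.9% and 31.1%.

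By annotation, 47.9% of members lay outside genes, 30.9% in a gene without overlapping an exon and 21.1% over an exon (GENCODE), compared with 54.8%, 37.2% and 7.97% of distal bins. The distance to the nearest TSS had a median of 7851 bp against 20953 bp, 59.7% of members lay within 10 kb against 28.4%, and 135 (2.79%) lay over 50 kb away against 25.7%. A transcript start in the RefSeq annotation lay within 2 kb of 702 members (14.5%) against 2.82% of distal bins. These starts include those of tRNA genes, so members with a tRNA gene count among the 702. Of the 12 members with the highest lowest-class level, the Wnt11, Zfp869, Aurkb and Akna regions were among them. The share was 11.2% at lowest-class levels between 3 and 4 and 30.5% above 10. Some members are thus distal in GENCODE only. Without the 702 members, 33.6% of the rest held a CTCF match and 24.9% were adjacent to another member.

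Of the annotated elements, tRNA genes had the largest share of bins that were members, a look added after the data were seen. RefSeq tRNA genes lay in 253 distal bins, of which 89 (35.2%, 29.3% to 41.4%) were members, compared with 0.234% of all distal bins, and 4 more were set aside. Counted by gene, 105 of 264 distal tRNA genes (39.8%) were in members and 81 (30.7%) in bins open in 0 classes. Of the 81, 45 were cysteine tRNA genes (n-TCgca) of chromosome 6, and without these 105 of 219 (47.9%) were in members and 36 (16.4%) in bins open in 0 classes. Whether reads of such gene copies mapped uniquely was not tested. Of the snRNA bins 0 of 30 and of the snoRNA bins 0 of 163 were members, which allows shares of up to 11.6% and 2.24%. Each number of classes from 1 to 7 held 6 to 15 of the other genes, with 6 genes in set-aside bins.

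The 89 tRNA members had higher levels than the rest in cluster 3, which did not choose them, with a median of 8.78 against 5.57. In the 8 classes, whose counts chose the members, the values are a description only. There their lowest-class level had a median of 8.69 against 3.89 in the other members, and highest over lowest 2.27 against 2.85. Their median level was highest in the erythroid-like cluster 5 (19.97) and lowest in cluster 0 (10.5), where members without a tRNA gene had 5.30 and 6.53. In cluster 3, 88 of 89 were open. Nucleosome-free fragments, shorter than the DNA of a nucleosome core, made up 64.4% (64.0% to 64.8%) of those in tRNA members and 71.8% in the others, and 8.99% held a CTCF match against 32.2%.

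The Wnt11 region (chr7:98815001-98816000), with both proline tRNA genes printed above, had class levels from 30.57 in cluster 5 to 46.56 in cluster 8, and 57, 654 and 561 fragments in the 3 libraries. The Aurkb region (chr11:69041001-69042000), with genes for aspartate, glycine and tryptophan tRNA, ran from 27.17 in cluster 6 to 43.47 in cluster 5. Near-identical tRNA genes can share reads, and the counts of single tRNA members are uncertain to that extent.

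Of 2229 distal bins in enhancers curated by RefSeq, 108 (4.85%, 3.99% to 5.82%) were members, against 0.234% of all distal bins, and 17.7% of those enhancer bins were open in exactly 1 class. Curated DNase-hypersensitive sites (0 of 98 bins, up to 3.69%) and protein-binding sites (0 of 80, up to 4.51%) held no member. These curated sets are small, so the shares are coarse.

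Members were spread over all 19 autosomes, with chromosome 11 the richest (510 members, 5.17 per 1000 distal bins) and chromosome 3 the poorest (1.18). Consecutive members lay a median of 56000 bp apart, with the middle 50% of gaps between 6000 and 256000 bp, and 1409 of 4822 gaps (29.2%) were at most 10 kb. Bins open in exactly 1 class, which are far more numerous, lay 5000 bp apart. Of the members 1353 (27.95%, 26.7% to 29.2%) touched another member, and 17.43% did when the E13.5 library was left out. Of bins open in exactly 1 class 39.5% touched another of their kind. These are 162056 bins against 4841 members, so the 2 shares cannot be compared as a measure of clustering.

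Merged, the members formed 4081 runs: 3488 single bins, 482 pairs, 74 triples and 37 longer ones. Most members therefore touched no other member. A run also ends at a bin that is near a TSS, set aside or open in fewer classes. The width of the open stretches was thus not measured. The longest runs had 7 bins, at chr8:120277001-120284000 near Gse1 and at chr13:21167001-21174000 near Trim27, the latter over 7 tRNA genes. Runs of 6 bins lay near Nfix (chr8:84810001-84816000) and Prr7 (chr13:55469001-55475000), and runs of 5 near Tex44 (chr1:86440001-86445000) and Gm22614 (chr3:96499001-96504000), where 4 tRNA genes lay. Chromosome 13 held 32 of the 105 tRNA genes found in members and 81 of the 264 distal tRNA genes, about the same share.

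Lists of genes were checked for members within 50 kb. Of all autosomal protein-coding genes, 6761 of 20779 (32.5%) had one. Of 19 housekeeping genes 13 (68.4%) did, with 5 members around Actb, and of 20 developmental regulators 2 did: Tal1, a blood factor, and Gata2. Members were thus near housekeeping genes more often and near developmental regulators less often than near all genes, as counts without a test. Members lie nearer to TSSs than distal bins do (median 7851 against 20953 bp). The lists were not matched for the density of genes around them, and its part in these counts was not tested.

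Of 19 genes at imprinted loci, which are expressed from 1 parental allele and several of which are insulated by CTCF, 12 (63.2%) had a member. H19 and Igf2 shared the adjacent bins chr7:142610001-142612000, whose lowest-class levels were both 6.268, with no CTCF match in either. Cdkn1c and Phlda2 shared 3 members, Kcnq1ot1 had 2, and Gnas, Nnat, Peg3, Plagl1, Grb10, Dlk1 and Igf2r had 1 each. No member lay near Peg10, Mest, Snrpn, Ndn, Rasgrf1, Meg3 or Peg13. The Airn region with the CTCF match printed above had levels from 3.888 in cluster 5 to 13.07 in cluster 8. Several of these genes neighbour each other, so they are not separate counts.

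The globin genes Hba-x and Hba-a1 shared 1 member, at chr11:32324001-32325000, and Hbb-bh1 and Hbb-y had none. Among Hox genes 2 of 8 had a member (Hoxb1 and Hoxc4), and among protocadherins Pcdhga1 had 5 members within 50 kb while Pcdha1 and Pcdhb1 had none. Of the 5, only chr18:37835001-37836000 lay inside Pcdhga1. The others lay past its end, with Diaph1 as the nearest gene.

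Fragments in members were short. Nucleosome-free fragments, too short to span a nucleosome core, made up 71.6% of those in members, 60.7% of those in all distal bins, 63.1% in bins open in exactly 1 class, 69.7% in bins near a TSS and 73.2% in those near a TSS and open in all 8 classes. By library the share in members was 67.8% (E12.5), 72.2% (E13.5) and 71.1% (the E15.5 library), and in all distal bins 55.7%, 62.0% and 59.4%. Members exceeded distal bins by more than 10 percentage points in every library, more than the libraries differed from each other in members. In cluster 3 the share was 71.4% in members and 61.4% in distal bins.

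The commonest length in members was 30 to 40 bp at E13.5 and E15.5 and 40 to 50 bp at E12.5. The median length fell in the step of 90 to 100 bp in the earliest library, 70 to 80 bp in the next and 80 to 90 bp in the latest, and in distal bins in those of 120 to 130, 100 to 110 and 110 to 120 bp. Each library kept its own length distribution, and the shift to short fragments in members appeared in all 3. The nucleosome-free share was 71.4% in CTCF members and 71.6% in the others, so the motif did not set it apart, and it was 73.5% in CpG-rich members.

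**Figure D4:**
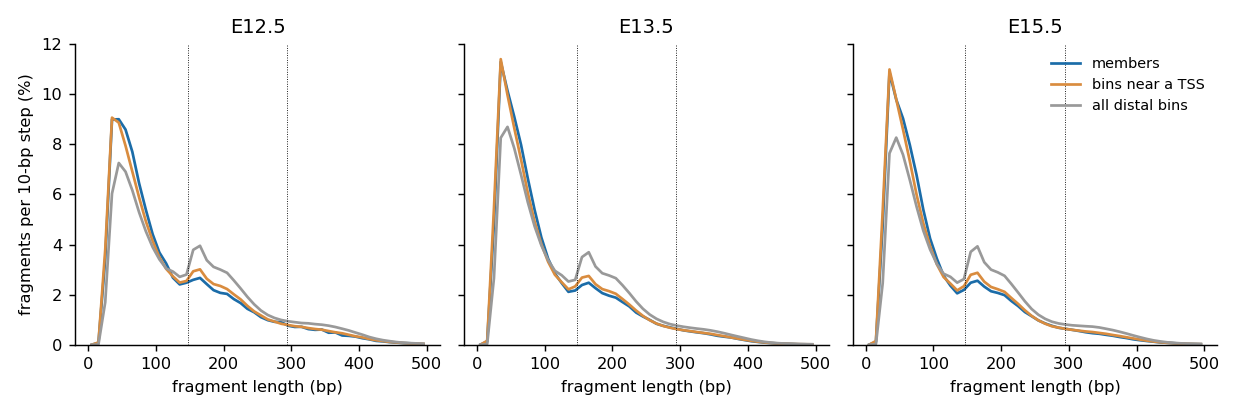
Fragment lengths in steps of 10 bp as percent of the fragments of each set, in the 8 classes of each library, for members (blue), bins near a TSS (orange) and all distal bins (grey). Dotted lines mark the DNA of 1 nucleosome core and of 2: members and bins near a TSS had more fragments below the first line and a smaller peak between the lines than all distal bins in each library.

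Among single members the nucleosome-free share had a median of 70.8% and ran from 42.2% to 99.6%, with the middle 80% between 63.0% and 78.03%. Among the 3866 members with at least 200 fragments, the Anp32e region (42.2%) was the lowest and the Gm5466 region (48.05%) also lay low. The Olfr1274-ps region (99.6%) was the highest, and the 1700015G11Rik region had 98.7%.

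A fragment was called stacked when at least 3 fragments of 1 nucleus overlapped at a point, which a locus present as 2 alleles gives rarely and sequence collapsed in the assembly can give often. Stacked fragments were 2.26% in members, 0.718% in distal bins, 3.16% near TSSs and 27.1% in the set-aside bins. These shares pool all fragments of a set. The median bin had 1.18% among members and 7.14% among the set-aside bins, and only 32 of the 132 set-aside bins exceeded 10%. The Anp32e region had 0.976%. In 49 members stacked fragments exceeded 10%, among them the Olfr1274-ps region (41.1%), the 1700015G11Rik region (33.1%) and the Gm5466 region (15.2%). These 49 had 86.5% nucleosome-free fragments and an E15.5 over E13.5 ratio of 0.645, while the remaining 4792 had 71.3% and 1.105. Whether collapsed repeats made them open was not tested.

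Of the members, 3 held 3 or more telomere repeats in a row. The Cd209a region shared 29 stretches of 24 bases with the ribosomal DNA copy on chromosome 17 and was 92.7% nucleosome-free, and no member shared such stretches with the mitochondrial genome. The Rad51b region (chr12:79499001-79500000) had 97.2% of its insertions in 150 bp, 98.3% nucleosome-free and 53.8% stacked fragments.

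Summed over classes, members took a larger share of fragments in the later libraries. Over the 8 classes the share was 1.57% in the E12.5 library, 1.73% in that of E13.5 and 1.90% in that of E15.5. The E13.5 over E12.5 ratio was 1.106 (1.098 to 1.115), the E15.5 over E13.5 ratio 1.096 (1.092 to 1.099) and the E15.5 over E12.5 ratio 1.212 (1.203 to 1.222). From E12.5 to E13.5, bins near a TSS rose as much (1.108) and those near a TSS and open in all 8 classes more (1.167), while all distal bins had 0.951, and for E15.5 over E12.5 these sets had 1.098, 1.198 and 0.956. For E15.5 over E13.5, bins near a TSS had 0.991, those near a TSS and open in all 8 classes 1.027, all distal bins 1.005 and bins open in exactly 1 class 0.941. With 1 library per stage these ratios compare libraries, and no spread between replicates was available to judge them.

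The makeup of the libraries differed. Cluster 5 gave 13.1%, 26.1% and 1.54% of the fragments of the 8 classes from the earliest stage to the latest, cluster 0 gave 25.1%, 12.7% and 35.3%, and cluster 9 gave 26.4%, 7.83% and 4.48%. Pooled class levels weighted by this makeup alone would give an E15.5 over E13.5 ratio of 1.018, and the observed ratio was 1.077 times that, a comparison added after the data were seen. The class levels behind the makeup value were pooled over the same libraries, so makeup and library are not separated. The part of makeup in the ratio was not tested.

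Within classes, the E15.5 over E13.5 ratio was above 1 in 7 of 8. It was 1.189 (1.165 to 1.214) in cluster 5, 1.158 in cluster 7, 1.124 in cluster 1, 1.121 in cluster 8, 1.096 in cluster 0, 1.090 in cluster 10 and 1.031 in cluster 9. In the neuron-like cluster 6 it was 0.985 (0.975 to 0.995). The value of cluster 5 rests on only 10 nuclei at E15.5 against 166 at E13.5. Cluster 3, which did not choose the members, had 1.048 (1.039 to 1.057). The neuron-like clusters 0 and 6 lay on opposite sides of 1. Bins near a TSS also rose within several classes, though not in the pooled value: their ratio was 1.136 in cluster 5, 1.090 in cluster 7, 1.043 in cluster 0, 1.041 in cluster 1 and 1.004 in cluster 10, and between 0.990 and 0.997 in clusters 6, 8 and 9. Those near a TSS and open in all 8 classes ran from 0.979 in cluster 9 to 1.259 in cluster 5. The ratio of members was above that of the latter bins in 6 of the 8 classes and below it in clusters 5 and 6 (1.002 in cluster 6). Against E12.5 the classes differed more: the E13.5 over E12.5 ratio ran from 0.752 (0.720 to 0.785) in cluster 8 and 0.941 in cluster 6 to 1.332 in cluster 9, and the E15.5 over E12.5 ratio was 0.843 in cluster 8 and 0.927 in cluster 6 and above 1 in the other 6. At E12.5 clusters 8 and 10 had only 2 nuclei each, cluster 6 had 5, cluster 7 had 6 and the others 10 or 11. The intervals count fragments, not nuclei.

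By kind, CTCF members had a ratio of 1.125 (1.118 to 1.132), members without a match 1.084 (1.080 to 1.088) and tRNA members 1.026 (1.008 to 1.045). The tRNA members had their highest median level in cluster 5, the class that went from 26.1% to 1.54% of fragments between these libraries, and the part of makeup in the differences by kind was not tested. CTCF members took 0.460%, 0.504% and 0.567% of fragments from the earliest stage to the latest.

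**Figure D5:**
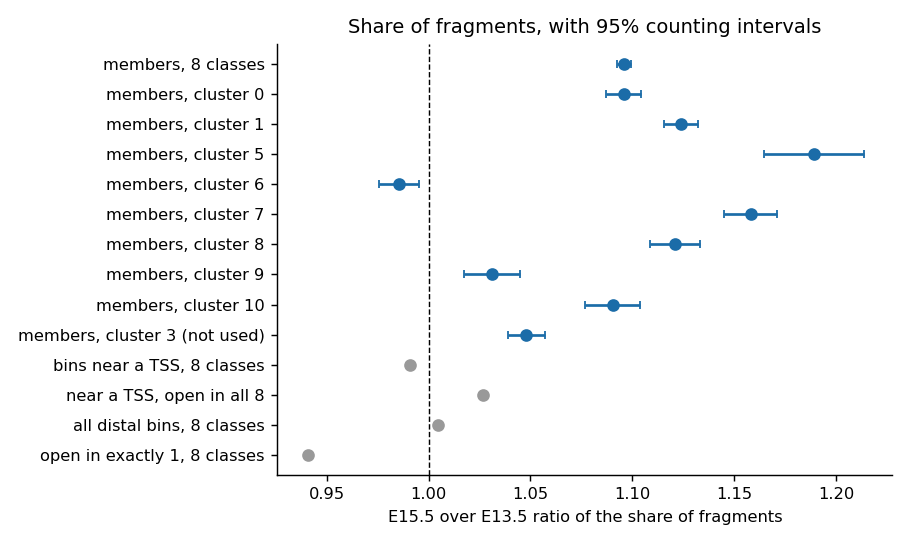
E15.5 over E13.5 ratio of the share of fragments in members, over the 8 classes, in each class and in cluster 3 (blue), and in other sets of bins (grey), with 95% counting intervals. Of the 8 classes only cluster 6 (0.985) lay below 1, and cluster 5 (1.189), with 10 nuclei at E15.5, was the highest.

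Single members varied around the pooled ratio. Of the members, all of which had at least 100 fragments in both libraries together, 394 (8.14%) were at least 1.5-fold higher at E15.5 against 14.2% of the 43214 distal bins with that minimum, and 201 (4.15%) were at least 1.5-fold lower against 14.9%. The median ratio was 1.097, with the middle 80% of members from 0.771 to 1.463. Nothing is read from these shares: the rule itself limits how far a member can depend on 1 class, and the distal bins share the minimum of 100 fragments but were not matched to the depth of members.

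The named extremes come from the 551 members with at least 200 fragments in both E13.5 and E15.5. The Gm22662 region (chr4:133660001-133661000), over an exon, had 5, 215 and 279 fragments in the 3 libraries, levels of 2.607, 10.78 and 21.24 and a ratio of 1.97 (1.64 to 2.36). Its class levels ran from 4.418 in cluster 5 to 33.01 in the muscle-like cluster 10. The Gm44369 region had a ratio of 1.92, the Hexim2 region 1.91 and the Egln3 region 1.87.

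All 4 had their lowest level in cluster 5, the class that was 26.1% of E13.5 and 1.54% of E15.5. From makeup alone the ratios would be 1.049 at Gm22662, 1.281 at Gm44369, 1.408 at Hexim2 and 1.189 at Egln3, so the observed ratios were 1.878, 1.5, 1.358 and 1.576 times the makeup value. The makeup value was nearest to 1 at Gm22662 and furthest above it at Hexim2, and the part of makeup in these ratios was not tested.

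At the other end lay the Gm6020 region (0.671), the Cd209a region (0.670) and the Rad51b region (0.575, 0.486 to 0.678). The Rad51b region had 27, 528 and 200 fragments, and its level was highest in cluster 5 (31.1). Makeup alone would give 0.6965 at Gm6020, 0.7265 at Cd209a and 0.8598 at Rad51b. The observed ratios were 0.9629, 0.9216 and 0.6688 times these values in that order. Stacked fragments were 53.8% at Rad51b and 41.95% at Cd209a. Neither their part in the ratios nor that of makeup was tested.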

How the data were processed

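The authors mapped the reads of each library to mm10 with Cell Ranger ATAC (version 2.0.0) and default settings. The deposited fragment files list every unique fragment of a barcode with its ends, which the pipeline shifts to the Tn5 cut, and the count of read pairs behind it (duplicates included). The deposited cell table gives the library, the cluster and the count of fragments of each nucleus, and the submitters' processing notes name Seurat 4.1.0 and Signac 1.6.0. Of its 24 columns only these and the barcode were used. The settings that gave the cluster numbers are not given in the sources used here. No doublet caller was run.

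Fragment midpoints on the 19 autosomes were counted in bins of 1 kb per cluster and library, each fragment once. A fragment was nucleosome-free when shorter than the DNA of a nucleosome core. Fragments of the 8 classes numbered 4724092 in E12.5, 49114802 in the E13.5 library and 32356042 in E15.5. GENCODE vM21 gave the TSSs, and RefSeq the tRNA genes, other elements and starts. Sequences and motifs were read from GRCm38. Shares carry exact Clopper-Pearson intervals, and ratios exact conditional binomial intervals (95%). Named regions were the 12 members with the highest lowest-class level, the 3 at the median, the 3 on each side of the threshold, the 4 highest and 4 lowest stage ratios (at least 200 fragments in both libraries) and the 3 highest and lowest nucleosome-free shares (at least 200 fragments), a few of which are not reported here. Elements, tRNA genes, stacked fragments, repeats, left-out libraries and class makeup were looked at after the data were seen.

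Scripts were tested on simulated data, and random draws used the seed 7. Python 3.11.15, numpy 2.4.6, scipy 1.17.1, pandas 2.3.3, numba 0.67.0 and matplotlib 3.10.9 were used. The members, lists and rules were chosen with earlier results of these data known. Alternatives changed the threshold, the bin starts, the TSS distance, the upper limit, the counted quantity, class depth, linked barcodes, the libraries and, added later, RefSeq starts and stacked fragments.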

Additional observations from a re-analysis of the deposited data

Results flagged for a closer look

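The E15.5 over E13.5 ratio of members was below 1 in cluster 6 (0.985, 0.975 to 0.995) and above 1 in the other 7 classes, from 1.031 to 1.189. The value of 1.189 is that of cluster 5, which had 10 nuclei at E15.5. Every class is 1 library against 1 library, and the difference between classes was not tested.

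Barcodes outside the cell table with at least 1000 fragments, which no comparison above used, also carried fragments in members. Of the members 71.4% (70.1% to 72.6%) reached 3 times the mean of these barcodes, compared with 1.02% of all distal bins, and their mean level in members was 4.02. There were 36, 546 and 272 such barcodes from the earliest library to the latest, and what they hold was not tested.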

How the results depend on the processing

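Over 7 results (the number of members, the shares open in clusters 3 and 11, with a CTCF match and adjacent to another, the nucleosome-free share and the E15.5 over E13.5 ratio) 50 of the recomputed values stayed within 1.5 times the main count or within the counting interval, 32 moved and 0 reversed. The rule at 5 times the mean left 1324 members, of which 99.62% were open in cluster 3, 82.1% in cluster 11 and 20.85% adjacent, with 72.68% nucleosome-free fragments and a ratio of 1.086. Beyond 5 kb from a TSS there were 3189 members, with 93.92% open in cluster 3, 57.95% in cluster 11 and a ratio of 1.111. With classes thinned to the depth of the shallowest, 93.79% were open in cluster 3 and 58.12% in cluster 11. Without an upper limit, 30.22% were adjacent, 72.44% of fragments were nucleosome-free and the ratio was 1.069. With bins shifted by 500 bp the nucleosome-free share was 71.46%.

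Leaving out members near a RefSeq start, tRNA members among them, gave 58.15% open in cluster 11, 33.63% with a CTCF match, 24.86% adjacent, 71.83% nucleosome-free and a ratio of 1.1. Leaving out those with over 10% stacked fragments gave 71.31% nucleosome-free and a ratio of 1.105. Both were chosen after the data were seen. Leaving out each library in turn gave 2834 to 4445 members, 91.64% to 95.71% open in cluster 3, 29.71% to 60.9% in cluster 11, 31.39% to 32.18% with a CTCF match, 17.43% to 27.11% adjacent and 71.08% to 72.21% nucleosome-free, and without E12.5 the ratio was 1.094. The library left out at the lowest values of the count, cluster 3, cluster 11, adjacency and the nucleosome-free share was E13.5 each time. It has the most fragments, and it also holds 166 of the 186 nuclei of cluster 5. The cause of these and the other changes was not tested. No paired analysis was possible because each stage has 1 library. Depth limits clusters 2, 4 and 11 most, where the threshold is 1 to 4 fragments.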
